A study of Mus musculus with 50 samples.

Results

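The first hour of the response of developing mouse oligodendrocytes to thapsigargin was read from bulk RNA-seq libraries. Of the 50 libraries in the series, 10 make up this comparison: 5 thapsigargin libraries taken at 1 h (2 wild-type and 3 Nrf2 -/-) and 5 untreated libraries of the same hour (2 wild-type and 3 Nrf2 -/-). They were selected by the treatment and the time in the sample labels, and genotype, taken from the titles, entered the model as a term. Oligodendrocyte progenitors had been immunopanned from the cortex of 6-day-old C57BL/6 pups, passaged 2 times and left to differentiate for 12 to 14 h before treatment. Nrf2 -/- cells are homozygous null for Nrf2 (gene symbol Nfe2l2), a transcription factor of the oxidative stress response. The thapsigargin dose is labelled 200 uM, far above common laboratory use, and whether the unit is right could not be checked, the labels name no vehicle for the untreated cells, and plates were assigned to treatments at random. The tissue tag reads whole brain, although the growth protocol names the cortex, and the design text speaks of 4 mutant replicates per time where 3 are analysed here. Later sections also use the 10 libraries of thapsigargin and untreated cells at 8 h and the 5 libraries of cells treated with IFN-gamma (200 U/ml, an inflammatory cytokine) for 1 h, again 2 wild-type and 3 Nrf2 -/- per group.

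Thapsigargin blocks SERCA, the pump that loads calcium into the endoplasmic reticulum (ER), so that the store empties and calcium rises in the cytosol. Proteins then misfold in the ER, and the sensors PERK, IRE1 and ATF6 start the unfolded protein response (UPR): PERK favours translation of ATF4, which drives Ddit3 (CHOP), IRE1 splices the Xbp1 mRNA, and ATF6 is cut into a factor that binds the ER stress element of chaperone genes. Calcium and MAP kinase signals also switch on immediate early genes, which need no new protein for their transcription. Oligodendrocytes pass large amounts of membrane and secretory protein through the ER when they make myelin.

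The 10 libraries held 33912135 to 36623488 counted reads, and Pearson's r of log2 CPM between libraries of a group was 0.9914 to 0.9937. CPM values are read counts scaled to a common library size by the TMM method. Nfe2l2 followed the genotype labels in all 10 libraries, at 7.82 to 11.03 CPM in wild-type and 0.238 to 0.667 CPM in Nrf2 -/- libraries. The summed level of 17 oligodendrocyte progenitor markers was 9290 to 9681 CPM in untreated and 9151 to 10050.0 CPM in treated libraries, and that of 23 tested myelin markers 9038 to 11322 and 8091 to 10806 CPM. Of 14 microglia markers only P2ry12 and Cd68 passed the filter on low counts, and Tmem119, C1qa and Trem2 had 0 counts in all 10 libraries. The labels do not say whether replicates were separate cultures, so the p-values speak only of the spread among these libraries, part or all of which may be technical.

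Short DNA and RNA sequences carry part of what follows and are given first. The ER stress element, searched on both strands as CCAAT and CCACG separated by 9 bases of any kind, was found in the promoter window (250 bases before to 50 after the start site, RefSeq, GRCm38.p6) of 19 of 10820 tested genes with a promoter sequence (0.18%). It was found in 10 of the 1819 such genes that rose at 1 h (0.55%) and in 1 of the 1408 that fell (0.07%). The lines below give 12 bases on either side in lower case and the element in capitals, on the strand of the gene, for 7 genes that rose and for Canx, which holds an element and did not pass the test. Creld2 and Alg12 lie head to head and share 1 site, as do Calr and 1700122E12Rik.
Hspa5, chr2:34772013-34772055, plus strand: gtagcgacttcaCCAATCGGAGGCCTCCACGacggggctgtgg
Hsp90b1, chr10:86705626-86705668, minus strand: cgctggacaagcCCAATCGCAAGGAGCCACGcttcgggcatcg
Calr, chr8:84847063-84847105, minus strand: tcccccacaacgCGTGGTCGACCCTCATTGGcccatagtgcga
Creld2, chr15:88819508-88819550, plus strand: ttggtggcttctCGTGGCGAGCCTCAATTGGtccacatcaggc
Pdia6, chr12:17266479-17266521, plus strand: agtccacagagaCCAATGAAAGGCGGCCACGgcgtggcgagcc
Syvn1, chr19:6046520-6046562, plus strand: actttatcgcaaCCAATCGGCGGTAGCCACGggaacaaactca
Derl3, chr10:75893230-75893272, plus strand: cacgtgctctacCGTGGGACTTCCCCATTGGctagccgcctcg
Canx, chr11:50325788-50325830, minus strand: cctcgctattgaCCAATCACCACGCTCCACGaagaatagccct

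RNA levels differed widely after 1 h of thapsigargin. The immediate early transcription factors and the first genes of the UPR were several-fold higher in both genotypes, while the genes that fell did so by smaller steps. The edgeR quasi-likelihood test with Benjamini-Hochberg adjustment over all 15067 tested genes called 4205 genes at an adjusted p below 0.05, which is 27.9% of them. Of these 2348 were higher (15.6%) and 1857 lower (12.3%). Most changes were small: 916 of the higher and 1258 of the lower genes had an absolute log2 fold below 0.25, and 962 and 386 one between 0.25 and 0.5. Called genes that at least doubled numbered 124 (0.823%), and 53 (0.352%) at least halved. Counts below are read against these shares. The median log2 fold of all tested genes was −0.01. In bulk RNA, fewer cells of a type and less RNA per cell cannot be told apart.

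The groups did not overlap for many of the called genes. All 5 treated libraries lay above all 5 untreated ones for 1643 of the 2348 higher genes, and below them for 948 of the 1857 lower genes. Over all tested genes, complete separation in either direction was seen for 18.3%. Of the 124 doubled genes, 103 were separated in this way, 87 reached a mean of 1 CPM in the treated group, and 43 belonged to 1 of the 27 gene lists described here. Of the 53 halved genes, 7 reached 1 CPM in the untreated group and 21 were separated.

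Immediate early transcription factors made the largest group among the doubled genes, 18 of 124. Of the 27 tested members of that list, 25 rose and 0 fell, with a median log2 fold of 1.32, and all 5 treated libraries exceeded all 5 untreated ones for 25 members. The exceptions were Jund (0.39 ± 0.21 SE, edgeR adjusted p = 0.217) and Ier5 (−0.04 ± 0.13, 0.85). Egr1, a zinc finger factor induced by growth factor and calcium signals, was measured at 8.49 and 3.40 CPM in the untreated wild-type libraries and at 8.64, 5.07 and 6.04 CPM in the untreated Nrf2 -/- libraries. With thapsigargin it stood at 98.6 and 60.7 CPM in wild-type and at 65.4, 57.4 and 67.9 CPM in Nrf2 -/- libraries, so that the lowest treated library lay far above the highest untreated one. Its log2 fold was 3.46 ± 0.28 (SE, 5 against 5 libraries, edgeR adjusted p = 9.88e-05).

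Nr4a1, an orphan nuclear receptor and textbook calcium-responsive gene, had the smallest p of all tested genes. Untreated levels were 10.3 and 11.5 CPM in wild-type and 9.14, 10.7 and 10.02 CPM in Nrf2 -/- libraries, and treated levels were 92.2 and 78.1 CPM and 78.3, 74.2 and 83.6 CPM. These are narrow groups with a wide gap, and the log2 fold was 2.98 ± 0.06 (edgeR adjusted p = 4.35e-16). Fos, a subunit of the AP-1 factor, rose from 92.4 and 67.4 CPM (wild-type) and 84.0, 67.2 and 67.4 CPM (Nrf2 -/-) to 399.6 and 347 CPM and to 424, 412 and 375 CPM. Its log2 fold was 2.37 ± 0.11 (edgeR adjusted p = 6.47e-07). Junb, another AP-1 subunit, rose by a log2 fold of 2.67 ± 0.21 (edgeR adjusted p = 8.53e-05). It overlaps Prdx2 on the opposite strand, whose log2 fold was −0.28 ± 0.04. Untreated replicate 1 of each genotype held the highest untreated values of Egr1 and Fos and of Junb, where they reached 19.2 and 18.9 CPM against 11.3 to 16.03 CPM in the others. Over the alternative settings and left-out libraries the log2 fold of Egr1 ranged from 3.26 to 3.62 and that of Fos from 2.33 to 2.47, always with a call.

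Low-abundance members showed the highest folds. Egr4 (3.84 ± 0.37, edgeR adjusted p = 7.29e-07), Egr3 (3.66 ± 0.38, 1.7e-06) and Fosb (3.53 ± 0.25, 1.27e-08) were all below 0.4 CPM in every untreated library and above 1 CPM in every treated one. The log2 fold was 4.52 for Egr4 without wild-type untreated 1 h replicate 2, 4.32 for Egr3 without Nrf2 -/- untreated 1 h replicate 1 and 2.78 for Fosb with isoform estimates. Gm15344, a transcript inside Hsp90b1 on the same strand, rose by 3.32 ± 0.12 where Hsp90b1 rose by 0.47 ± 0.05. Gem, a small GTPase that restrains calcium channels, is on the list of calcium, CREB and NFAT responsive genes. It went from 0.0288 to 0.134 CPM untreated to 0.936 to 1.88 CPM treated, a log2 fold of 4.08 ± 0.32 (edgeR adjusted p = 6.19e-08). Members with more moderate folds included Nr4a2 (1.64 ± 0.11), Maff (1.27 ± 0.08) and Myc (0.63 ± 0.07), all with all treated libraries above all untreated ones.

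The wider set of signal-responsive genes followed in part. Of 24 tested genes known to respond to calcium, CREB or NFAT, 13 rose and 0 fell, with a median log2 fold of 0.28. Per1, a clock gene under CREB control, went from 5.81 to 7.90 CPM untreated to 28.02 to 41.2 CPM treated (2.31 ± 0.09, edgeR adjusted p = 7.15e-12), and Sik1, a kinase that feeds back on CREB, rose by 0.87 ± 0.06 (1.86e-08). Rcan1, a calcineurin inhibitor known as an NFAT target, did not pass the test. Its 5 untreated libraries held 45.9, 42.1, 45.1, 42.7 and 45.99 CPM and its 5 treated libraries 44.3, 47.2, 42.2, 51.5 and 48.7 CPM. The groups overlap, and the log2 fold was 0.08 ± 0.05 (edgeR adjusted p = 0.324). Of 22 tested MAP kinase phosphatases and signalling feedback genes, 14 rose and 0 fell (median 0.42). Dusp1, a phosphatase that switches off MAP kinases, rose from 2.41 to 4.25 CPM to 12.7 to 18.4 CPM (2.02 ± 0.12, edgeR adjusted p = 1.17e-08), followed by Dusp5 (1.23 ± 0.11) and the receptor signalling inhibitor Spry1 (0.53 ± 0.05).

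The cyclic AMP response element TGACGTCA, the site bound by CREB and related factors, was in the promoter window of 400 of the 10820 genes (3.7%), of 113 of 1819 that rose (6.21%), of 40 of 1408 that fell (2.84%) and of 6 of 74 that at least doubled (8.11%). Of the genes with the element 28.25% rose, against 16.37% of those without it. The lines below show it, in capitals with 12 bases on either side, in 2 genes that rose and in Rcan1, which did not pass the test. The same letters are therefore present in promoters of genes of both kinds. Rcan1 has 2 promoter sequences, not both with the element, and its log2 fold covers the gene as a whole. Output of the promoter with the element was not measured apart.
Dusp1, chr17:26508596-26508627, minus strand: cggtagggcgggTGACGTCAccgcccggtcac
Maff, chr15:79347479-79347510, plus strand: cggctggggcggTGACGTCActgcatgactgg
Rcan1, chr16:92400234-92400265, minus strand: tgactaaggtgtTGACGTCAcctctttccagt

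Other motifs were about as frequent among all higher genes as among all tested genes. Their shares among the genes that at least doubled rest on 0 to 6 promoters and were not tested. The UPR element TGACGTGG was found in 1.04% of promoters of higher genes, 1.01% of those of all tested genes and 0 of the 74 of doubled genes. For the core of the C/EBP-ATF element, TGATGNAA, the shares were 2.8% and 2.64%, with 6.76% (5 of 74) among the doubled genes. For the AP-1 site TGAGTCA they were 3.9% and 4.1%, with 8.11% (6 of 74) among the doubled genes. A strict form of the serum response element was in 4 promoters of all tested genes. All motifs were searched on both strands, and a match is a match of letters only.

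**Figure D1:**
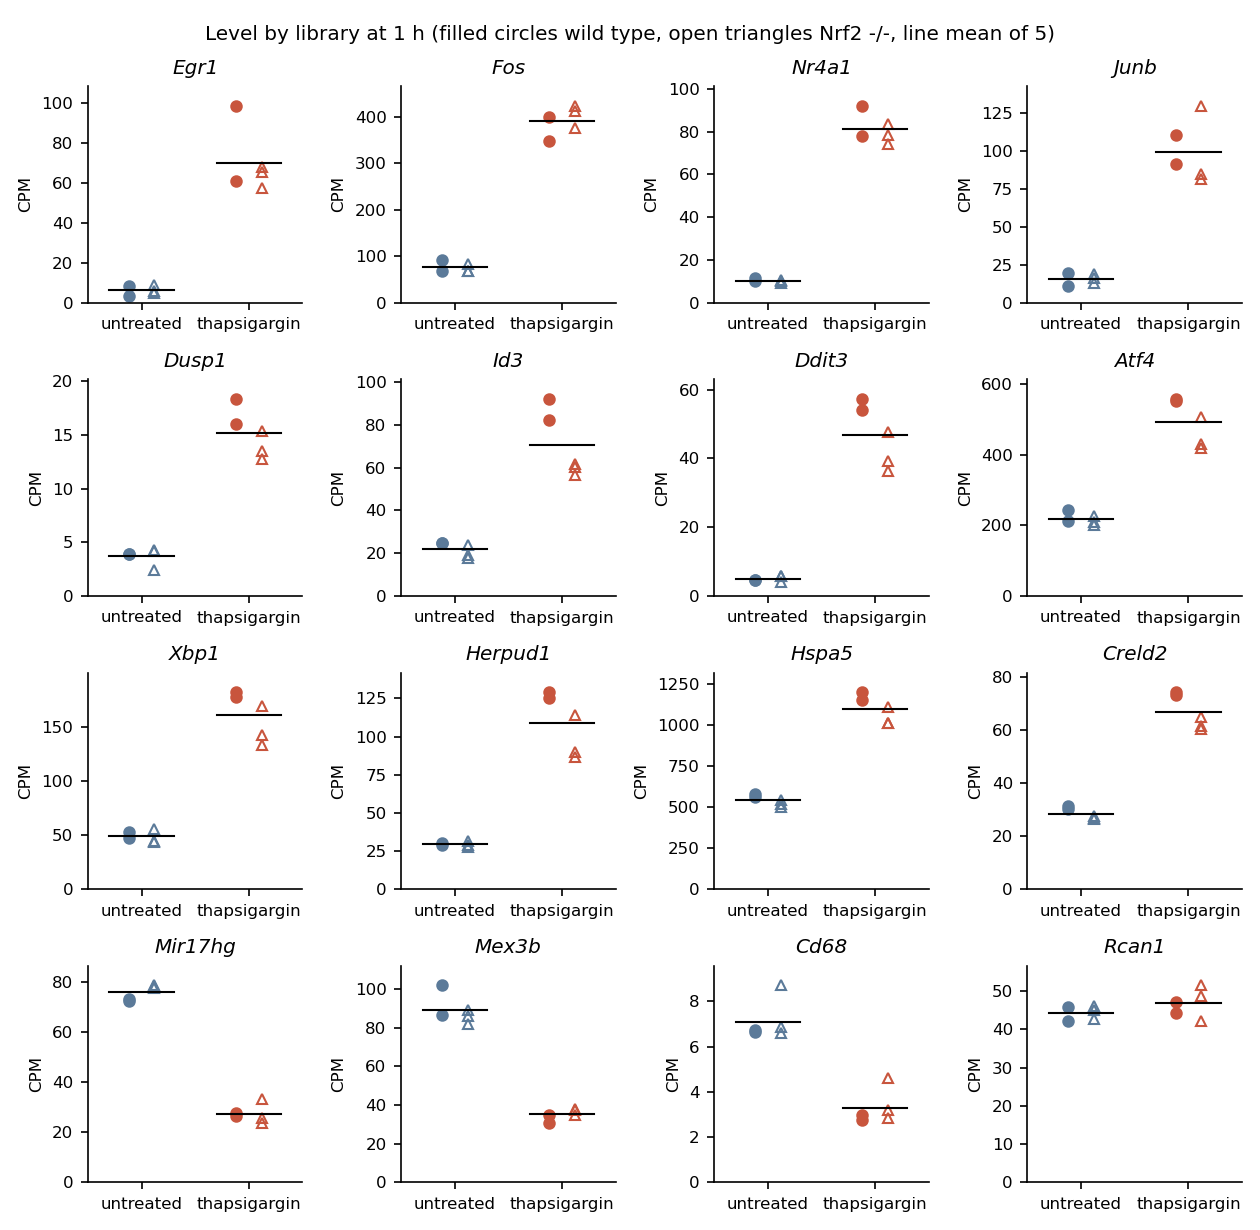
Level of 16 genes in each of the 10 libraries at 1 h, in CPM on linear axes that start at 0. Filled circles are wild-type and open triangles Nrf2 -/- libraries, and the line is the mean of 5. Treated and untreated libraries are apart for 15 genes and overlap for Rcan1. Both treated wild-type libraries lie above all 3 treated Nrf2 -/- libraries for Ddit3, Atf4, Xbp1, Herpud1, Hspa5, Creld2 and Id3. This order was seen for 15.7% of all tested genes, and for Hspa5 and Id3 the untreated libraries show it too.

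Ddit3, Atf4, Atf3 and Xbp1, which encode transcription factors of the UPR, at least doubled at 1 h, while most other sensors and factors of the UPR moved little or did not pass. Ddit3, which encodes the stress factor CHOP, was measured at 4.65 and 4.52 CPM in untreated wild-type and at 5.78, 5.82 and 4.01 CPM in untreated Nrf2 -/- libraries. With thapsigargin it reached 57.3 and 54.2 CPM in wild-type and 39.4, 36.3 and 47.7 CPM in Nrf2 -/- libraries. Every treated library was several-fold above every untreated one, and the log2 fold was 3.23 ± 0.15 (edgeR adjusted p = 2.9e-07). Ddit3 overlaps Mars on the opposite strand, and Mars did not pass (0.06, edgeR adjusted p = 0.386). Atf4, the factor upstream of Ddit3, was at 213, 245, 201, 209.8 and 227 CPM in the untreated libraries and at 553, 558, 418, 430.4 and 508 CPM in the treated ones (1.16 ± 0.06, edgeR adjusted p = 5.03e-09). Atf3, a stress factor also counted among immediate early genes, went from 0.345 to 0.773 CPM to 2.09 to 4.88 CPM (2.87 ± 0.27, edgeR adjusted p = 4.58e-06). Chac1, a glutathione-degrading enzyme and CHOP target, rose by 2.08 ± 0.21 (edgeR adjusted p = 9.01e-06).

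Across the list of 22 tested genes of the ATF4 and CHOP stress response, 9 rose and 1 fell (median log2 fold 0.20). Ppp1r15a, which encodes GADD34 and restores translation, rose by 0.38 ± 0.08 (edgeR adjusted p = 0.000979), from 11.2 to 15.3 CPM to 15.3 to 20.6 CPM. Trib3 (0.35 ± 0.22, edgeR adjusted p = 0.243) did not pass. Atf5 was the member that fell (−0.20 ± 0.07, edgeR adjusted p = 0.0325), and it lost its call in 6 of 19 alternative settings. It overlaps Nup62 on the opposite strand. Among 12 tested sensors and transcription factors of the UPR, 5 rose and 1 fell (median 0.09). Xbp1, the target of IRE1, rose from 52.5 and 47.6 CPM (wild-type) and 55.9, 44.9 and 43.1 CPM (Nrf2 -/-) to 178 and 182 CPM and to 143, 133 and 169 CPM. The groups are wide apart, with a log2 fold of 1.71 ± 0.09 (edgeR adjusted p = 2.58e-07). The sensor genes themselves moved little: Eif2ak3 (PERK) by 0.14 ± 0.04 and Atf6 by 0.15 ± 0.04, both called, while Ern1 (IRE1) at 0.05 ± 0.06 did not pass (edgeR adjusted p = 0.622). Mbtps1, a protease that cuts ATF6, was lower in every treated library (−0.17 ± 0.04, edgeR adjusted p = 0.00257).

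Most chaperones and folding enzymes of the ER were higher, by modest amounts. Of 25 tested members 18 rose and 0 fell, with a median log2 fold of 0.30. Hspa5, the ER chaperone BiP, was at 578 and 564 CPM (wild-type) and 544, 499 and 521 CPM (Nrf2 -/-) untreated, and at 1154 and 1200.3 CPM and 1015, 1015 and 1108 CPM treated. No treated library came near the untreated range, and the log2 fold was 1.02 ± 0.04 (edgeR adjusted p = 7.15e-12). Creld2, an ER-resident folding factor, had the highest fold of the list (1.23 ± 0.04, edgeR adjusted p = 1.49e-12), with 26.4 to 31.3 CPM untreated and 60.7 to 74.4 CPM treated. Manf, a secreted ER stress protein, followed at 0.99 ± 0.04 (edgeR adjusted p = 4.99e-12). Its gene overlaps Rbm15b and Dcaf1, which rose by 0.14 and 0.23. Hyou1 (0.84 ± 0.04), Pdia4 (0.68 ± 0.05) and Hsp90b1 (0.47 ± 0.05) were among the others that rose, whereas Canx, with the element shown above, was at −0.05 ± 0.04 (edgeR adjusted p = 0.396).

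Part of the genes of ER-associated degradation (ERAD), which pull misfolded proteins out of the ER, rose. Of 25 tested, 9 rose and 3 fell, beside 15.6% higher and 12.3% lower among all tested genes. The median log2 fold of the list was 0.06. Herpud1, an ERAD scaffold, was at 29.1 and 30.5 CPM (wild-type) and 31.3, 27.4 and 28.8 CPM (Nrf2 -/-) untreated and at 125 and 129 CPM and 90.1, 86.6 and 114 CPM treated. The separation was complete, with a log2 fold of 1.88 ± 0.09 (edgeR adjusted p = 7.16e-08). Derl3, a derlin of the same machinery, rose by 2.65 ± 0.23 (edgeR adjusted p = 1.39e-07) from 0.149 to 0.317 CPM to 1.41 to 2.10 CPM. With isoform estimates summed per gene its log2 fold was 0.59, still called. The ubiquitin ligase gene Syvn1 rose by 0.79 ± 0.06. The number that rose was 5 without wild-type untreated 1 h replicate 2. Dnajc10 (−0.20 ± 0.04) and Ufd1 (−0.17 ± 0.05) were among those that fell.

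Genes that carry proteins into and out of the ER did not rise together. Of 23 tested, 2 rose and 5 fell, with a median log2 fold of −0.03. Sec61b, a subunit of the translocation channel, was at 44.4 to 51.7 CPM untreated and 33.9 to 39.7 CPM treated (−0.40 ± 0.06, edgeR adjusted p = 3.37e-05), and Ssr1, of the translocon-associated complex, fell by 0.25 ± 0.04. The amino acid supply genes, known targets of ATF4, gave 5 higher and 3 lower of 28 (median 0.04), which is close to the share among all genes, and ranged from 3 to 5 and from 1 to 3 over the settings. Slc3a2, the heavy chain of amino acid exchangers, rose by 0.59 ± 0.05, while Psat1, an enzyme of serine synthesis, fell by 0.33 ± 0.05, and Asns, asparagine synthetase, was at −0.06 ± 0.04 (edgeR adjusted p = 0.356). Of 23 tested calcium pump and channel genes only Orai1 was called (0.23 ± 0.07, edgeR adjusted p = 0.0252). Atp2a2, which encodes the widespread form of SERCA, was at 0.17 ± 0.15 (edgeR adjusted p = 0.47).

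The 19 genes with an ER stress element in the promoter window are 10 that rose, 1 that fell and 8 that did not pass. The higher genes are the chaperones Hspa5, Hsp90b1, Calr, Creld2, Pdia6 and Dnajc3, the ERAD genes Derl3 and Syvn1, and Alg12 and 1700122E12Rik, the head-to-head neighbours of Creld2 and Calr. Log2 folds ranged from 0.29 ± 0.06 for Dnajc3 to 2.65 ± 0.23 for Derl3, or 0.59 for Derl3 with isoform estimates. Both members of each head-to-head pair rose: Creld2 by 1.23 and Alg12, a mannosyltransferase, by 1.01 ± 0.06, and Calr by 0.34 ± 0.04 and 1700122E12Rik by 2.14 ± 0.27. In the higher genes the element starts 220 to 44 bases before the start site, over 9 distinct sites. The gene that fell is Adcy3 (−0.47 ± 0.06), and those not called are Acacb, Canx, Hnrnpa3, Pan2, Spats2l, Xlr3a, Xlr3b and Zfp57. Of genes with the element 52.63% rose, against 16.75% of genes without it. Xbp1, Atf4 and Herpud1 had no match to this element in the window.

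**Figure D2:**
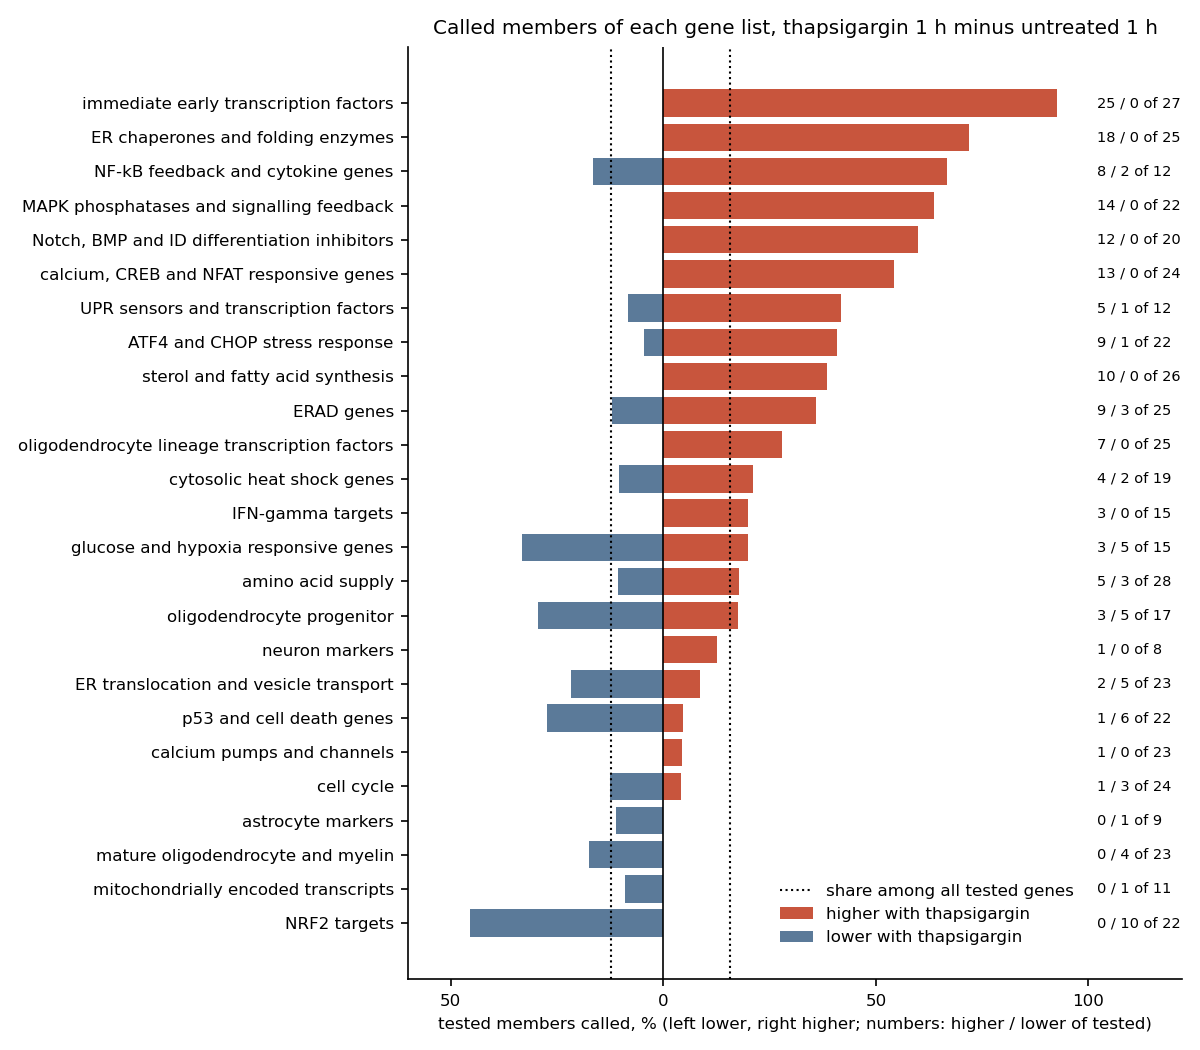
Share of the tested members that were called, in percent, for 25 gene lists (microglia and endothelial markers, with 2 and 3 tested members, are not drawn), lower to the left and higher to the right. Numbers at the right give higher, lower and tested members, and dotted lines mark the shares among all tested genes (15.6% and 12.3%). Immediate early factors (25 of 27) and ER chaperones (18 of 25) lead on the right and NRF2 targets (10 of 22) on the left.

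A part of the genes that inhibit differentiation and of the NF-kB feedback genes rose. Of 20 tested genes on the list of Notch, BMP and ID differentiation inhibitors, 12 rose and 0 fell (median log2 fold 0.28). The list also holds Sox4, Sox11, Skil and Atoh8, and of these Sox4, Skil and Atoh8 rose. Id3, which blocks basic helix-loop-helix factors, was at 24.92 and 24.98 CPM (wild-type) and 23.8, 17.5 and 19.1 CPM (Nrf2 -/-) untreated, and at 82.2 and 92.2 CPM and 56.7, 60.2 and 61.7 CPM treated. All treated libraries were above all untreated ones (1.66 ± 0.08, edgeR adjusted p = 2.74e-09). The repressors Hey2 (1.55 ± 0.11) and Hes1 (1.37 ± 0.18) and the ID family member Id1 (1.30 ± 0.17) rose as well. The list of NF-kB feedback and cytokine genes holds 21 genes, of which 12 were tested, and 8 rose and 2 fell. Ccl2, Cxcl1, Il6 and Tnf were among those that did not pass the filter on low counts. Csf1 was the only cytokine tested. Nfkbiz (1.25 ± 0.13), Relb (0.98 ± 0.09) and Tnfaip3 (0.83 ± 0.12) were higher, and Csf1, the macrophage growth factor, was lower (−0.38 ± 0.05, edgeR adjusted p = 3.57e-05). Nfkbia, which encodes the main inhibitor of NF-kB, was lower as well (−0.23 ± 0.08, edgeR adjusted p = 0.045), a call lost in 9 of 19 settings.

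Oligodendrocyte genes moved little at this hour. Of 25 tested lineage transcription factors 7 rose and 0 fell, among them Sox10 (0.32 ± 0.04, edgeR adjusted p = 1.6e-05) and Nkx6-2 (0.64 ± 0.10, 0.000397), while Olig2 was at 0.06 ± 0.05 (edgeR adjusted p = 0.384). Progenitor markers gave 3 higher and 5 lower of 17, and the number lower ranged from 1 to 8 over the settings, with 2 without wild-type untreated 1 h replicate 1 and without replicate 1 of each thapsigargin group. Gpr17, a receptor of cells about to differentiate, rose by 0.32 ± 0.05, Bmp4 fell by 0.50 ± 0.12, and Pdgfra, the growth factor receptor of progenitors, was at −0.08 ± 0.07 (edgeR adjusted p = 0.446). Of 23 tested myelin genes 0 rose and 4 fell (Mog, Ugt8a, Gal3st1 and Tspan2), and this number ranged from 0 to 7 over the 19 alternative settings, with 0 without Nrf2 -/- thapsigargin 1 h replicate 3 and 0 without wild-type untreated 1 h replicate 2. Mbp, a main protein of myelin, was at −0.11 ± 0.09 (edgeR adjusted p = 0.407).

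NRF2 targets fell or stayed below the threshold. These counts pool both genotypes, and 3 of the 5 libraries in each group are Nrf2 -/-. A part of NRF2 itself in the lower levels was not tested. Of 22 tested 0 rose and 10 fell, against 12.3% lower among all genes, with a median log2 fold of −0.12. The number that fell ranged from 4 to 10 over the alternative settings, with 5 without wild-type thapsigargin 1 h replicate 1 and 6 without wild-type untreated 1 h replicate 1. Prdx1, a peroxidase, was at 237 to 284 CPM untreated and 181 to 205 CPM treated (−0.40 ± 0.05, edgeR adjusted p = 1.06e-05), and the ferritin light chain gene Ftl1 fell by 0.23 ± 0.05. Hmox1, heme oxygenase, was at −0.08 ± 0.09 (edgeR adjusted p = 0.565). Nfe2l2 itself had a log2 fold of 0.44 ± 0.15 (edgeR adjusted p = 0.0395), a call that was lost in 10 of 19 alternative settings. It rose from 7.82 and 9.38 CPM to 11.03 and 10.2 CPM in wild-type libraries.

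Sterol and fatty acid synthesis gave 10 higher and 0 lower of 26, with a median log2 fold of 0.11, and the number higher ranged from 5 to 13 over the settings. Fdps, an enzyme of isoprenoid synthesis, rose by 0.30 ± 0.04 (edgeR adjusted p = 1.83e-05), but was at 0.03 and not called with isoform estimates summed per gene. Cytosolic heat shock genes gave 4 higher and 2 lower of 19, and p53 and cell death genes 1 and 6 of 22. Cell cycle genes gave 1 higher and 3 lower of 24, but 8 were lower without Nrf2 -/- thapsigargin 1 h replicate 3 and 7 without wild-type thapsigargin 1 h replicate 1. Glucose and hypoxia responsive genes gave 3 and 5 of 15, and the number lower ranged from 2 to 5 over the settings. In this list Txnip, a regulator of glucose uptake, rose by 1.44 ± 0.18 (edgeR adjusted p = 4.11e-05) and Pgk1, a glycolytic enzyme, fell by 0.20 ± 0.04. Of 11 tested mitochondrially encoded transcripts mt-Co1 was called (−0.22 ± 0.05) and the median log2 fold was −0.17. The number lower was 4 without Nrf2 -/- thapsigargin 1 h replicate 1 and 6 of 13 without the filter on low counts.

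Markers of other brain cells were looked at beside these. Gad1, the GABA-synthesising enzyme used as a neuron marker, rose by 2.45 ± 0.43 (edgeR adjusted p = 0.000978) from 0.107 to 0.401 CPM to 0.578 to 2.32 CPM. The other 7 tested neuron markers were not called. All 8 tested markers, Gad1 included, summed to 1489 to 1712 CPM untreated and 1565 to 1644 CPM treated. Most of this sum was Map2, with 271156 untreated counts against 8868 for Tubb3, the next. Gad2, which was not tested, had 21 counts untreated and 7 treated. Cd68, a lysosomal protein used as a macrophage marker, was at 6.66, 6.73, 6.88, 8.70 and 6.58 CPM untreated and 2.97, 2.78, 4.61, 3.22 and 2.84 CPM treated. The 2 groups were apart, with a log2 fold of −1.12 ± 0.12 (edgeR adjusted p = 3.19e-06). P2ry12 fell by 0.42 ± 0.15, a call lost in 14 of 19 settings, and Cx3cr1 and Csf1r had 1 count each over the 5 untreated libraries. Of 9 tested astrocyte markers 0 rose and 1 fell, and of 3 tested endothelial, mural and fibroblast markers 0 were called.

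The genes that fell furthest include hosts of microRNAs. Mir17hg (GRCm38, chr14:115042879-115046727), the primary transcript of the miR-17 to miR-92 cluster, had the lowest fold among called genes of at least 1 CPM. It was at 73.2 and 72.6 CPM (wild-type) and 77.7, 78.7 and 78.6 CPM (Nrf2 -/-) untreated and at 26.4 and 27.9 CPM and 33.4, 25.9 and 23.9 CPM treated. Its log2 fold was −1.47 ± 0.07 (edgeR adjusted p = 1.26e-09), with all libraries apart. Mex3b, an RNA-binding protein, was at 86.7, 101.7, 81.7, 89.3 and 86.1 CPM untreated and 30.8, 34.8, 37.3, 37.8 and 34.8 CPM treated (−1.34 ± 0.07, edgeR adjusted p = 4.52e-10). Mir124a-1hg, a host of miR-124, fell by 0.91 ± 0.08 (edgeR adjusted p = 2.9e-07), and Ehbp1l1 fell by 1.03 ± 0.10. Dancr, a long noncoding RNA and small nucleolar RNA host, was at −1.05 ± 0.22 (edgeR adjusted p = 0.00166), and Cldn15, a tight junction protein, at −0.91 ± 0.21.

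At the other end stood 1700016P03Rik (GRCm38, chr11:75172560-75177633), the host of miR-212 and miR-132, which are known as CREB-responsive microRNAs. It had the highest log2 fold among called genes of at least 1 CPM, 4.28 ± 0.34 (edgeR adjusted p = 6.19e-08). With isoform estimates it was 2.97, below Gem at 4.01. The 5 untreated libraries held 17 counts together and the 5 treated libraries 329, or 0 to 0.162 CPM against 1.35 to 2.15 CPM. It overlaps Ovca2 on the opposite strand, which did not pass (0.07, edgeR adjusted p = 0.378). Mature microRNAs were not measured here. Their sequences (RefSeq, GRCm38.p6) are shown because the hosts have the highest and the lowest fold among called genes of at least 1 CPM with separated libraries, with the seed, bases 2 to 8, in capitals.
miR-132-3p: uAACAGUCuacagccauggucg
miR-212-3p: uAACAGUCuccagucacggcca
miR-17-5p: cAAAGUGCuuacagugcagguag
miR-20a-5p: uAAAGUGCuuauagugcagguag
miR-18a-5p: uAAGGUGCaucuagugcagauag
miR-19a-3p: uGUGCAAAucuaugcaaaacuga
miR-19b-3p: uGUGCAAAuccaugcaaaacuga
miR-92a-3p: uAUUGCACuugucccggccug

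The first pair, from the host that rose, shares the seed AACAGUC. In the cluster that fell, miR-17-5p and miR-20a-5p share AAAGUGC, miR-19a-3p and miR-19b-3p share GUGCAAA, and miR-18a-5p and miR-92a-3p have seeds of their own. All 6 hairpins of the cluster and both hairpins of the other host lie inside the annotated host genes.

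Genes that at least doubled were short. Their median genomic span was 5.9 kb, and 62.9% spanned less than 10 kb, against a median of 21.8 kb and 29.9% for all tested genes. This did not hold for the whole set of higher genes, whose median span was 25.1 kb. Genes that fell had a median of 15.6 kb and those at least halved one of 4.6 kb. Among genes under 5 kb 1.83% at least doubled, and among genes of 30 to 100 kb 0.28% did. These are descriptions over genes, without a test.

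**Figure D3:**
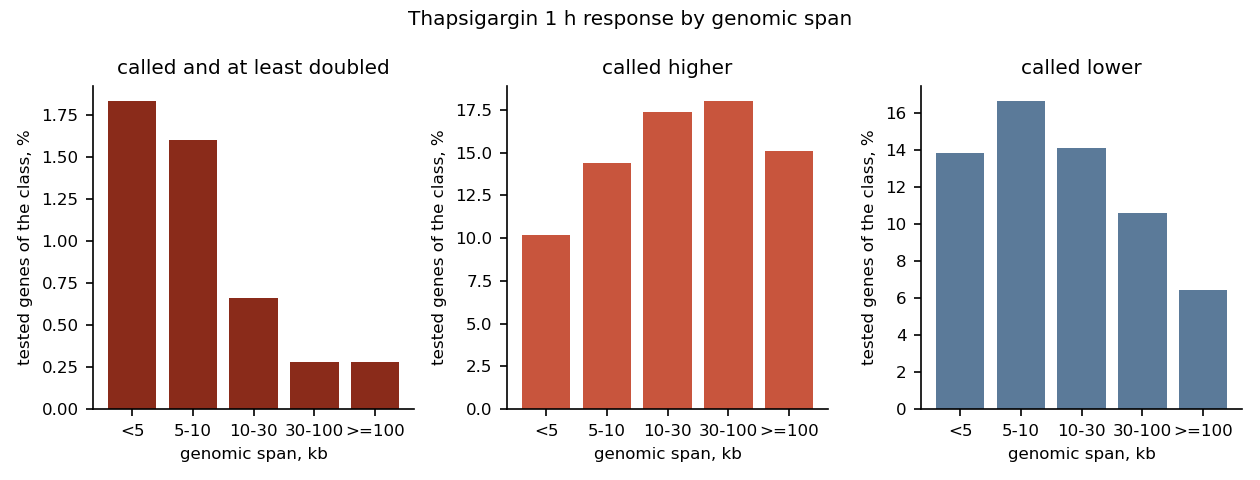
Share of tested genes in each class of genomic span (kb) that were called and at least doubled, called higher, or called lower, in percent. Each panel has its own linear axis starting at 0. The share at least doubled goes from 1.83% under 5 kb to 0.28% at 100 kb or more, while the share called higher peaks at 18% between 30 and 100 kb.

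Both genotypes responded, and the difference between their responses passed the test for no gene. Within wild-type cells 2189 genes were called and within Nrf2 -/- cells 1960. The interaction test in edgeR called 0 of 15067 genes (0%), with 688 at an unadjusted p under 0.05 and a smallest adjusted p of 0.0714. DESeq2 called 24 genes, all with a lower response in Nrf2 -/- cells, and edgeR without the filter on low counts called 83. Leaving out single libraries gave 0 in 8 cases, 11 without Nrf2 -/- thapsigargin 1 h replicate 1 and 19 without wild-type thapsigargin 1 h replicate 2.

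Among named UPR genes Ddit3 and Herpud1 had higher folds in wild-type cells without passing the test, while Hspa5 hardly differed. Ddit3 rose by a log2 fold of 3.60 ± 0.16 in wild-type and 2.98 ± 0.13 in Nrf2 -/- cells, a difference of −0.62 with a 95% interval of −1.08 to −0.17. In edgeR its unadjusted p was 0.0113 and its adjusted p = 0.823. For Herpud1 the folds were 2.09 ± 0.11 and 1.73 ± 0.09, a difference of −0.36 (interval −0.66 to −0.05). Hspa5 rose by 1.04 and 1.00, with a difference of −0.04 (interval −0.22 to 0.15), and Nr4a1 by 2.97 and 2.98, with a difference of 0.01 (interval −0.25 to 0.28). For these 2 genes the intervals exclude differences beyond 0.28 on the log2 scale. Both treated wild-type libraries lay above all 3 treated Nrf2 -/- libraries for Ddit3, Atf4, Xbp1, Herpud1 and Hspa5, an order seen for 15.7% of all tested genes. For Hspa5 the untreated libraries stood in the same order. Mex3b fell by 1.52 in wild-type and by 1.23 in Nrf2 -/- cells (interval of the difference 0.06 to 0.53).

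**Figure D4:**
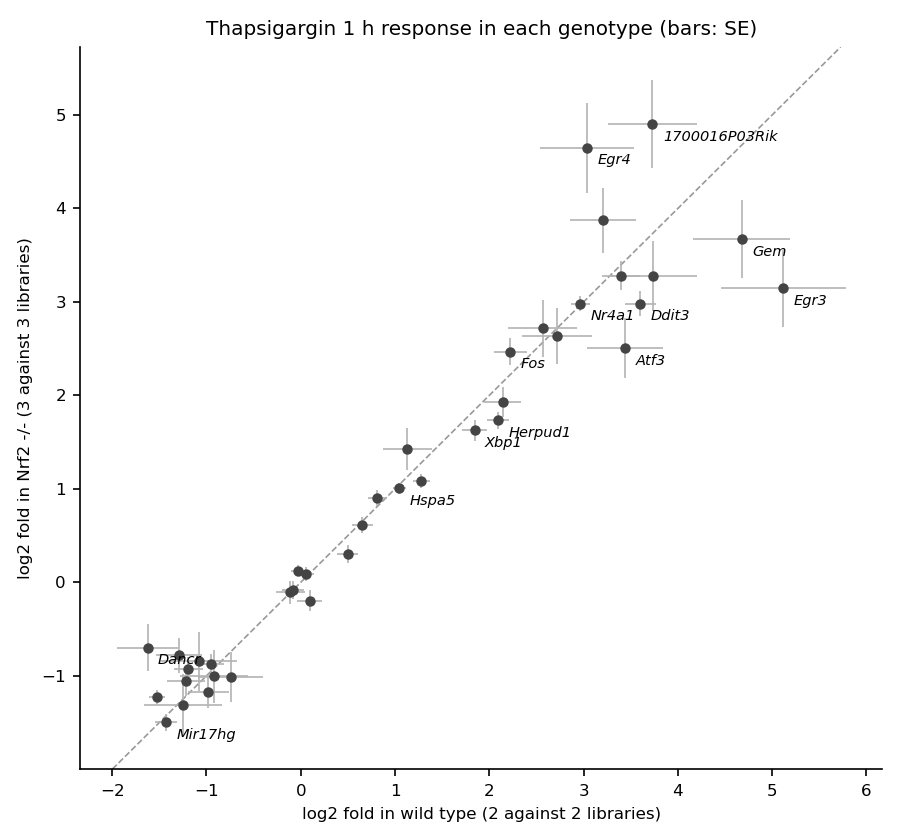
Log2 fold of thapsigargin against untreated at 1 h in wild-type (x axis, 2 against 2 libraries) and Nrf2 -/- cells (y axis, 3 against 3) for the genes with the highest and lowest folds and the reference genes fixed by rule, with SE bars and the line of equal folds. Ddit3 lies at 3.60 and 2.98, Hspa5 at 1.04 and 1.00, and Mir17hg at −1.43 and −1.50.

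At 8 h the response covered more genes and further gene groups. A fit to all 50 libraries, whose CPM scale differs slightly from the values above, compared the response at 8 h (against untreated cells of 8 h) with that at 1 h. The 2 responses differed for 9193 of 16460 tested genes (55.9%), 4462 with a higher and 4731 with a lower fold at 8 h. In this fit 11048 genes were called at 8 h alone and 3366 at 1 h alone.

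Several immediate early genes had lower folds at 8 h than at 1 h. Nr4a1 went from 75.9 ± 6.49 CPM (SD, n = 5) at 1 h to 7.31 ± 0.926 CPM at 8 h of thapsigargin, where untreated cells held 10.2 ± 1.32 CPM. Its log2 fold of 2.98 at 1 h became −0.52 ± 0.09 at 8 h (difference −3.50 ± 0.12, edgeR adjusted p = 6.81e-26). Egr1 fell back from a fold of 3.51 to 0.68 ± 0.37 (difference −2.83 ± 0.46, edgeR adjusted p = 3.55e-06), and Fos from 2.35 to 0.98 ± 0.08. Over the list of 27 immediate early genes, 25 were higher and 0 lower at 1 h, 20 higher and 3 lower at 8 h. The response was lower at 8 h than at 1 h for 13 members and higher for 9. Among the latter were Nr4a2, a relative of Nr4a1 (difference 1.29 ± 0.21), and Myc (0.56 ± 0.16).

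UPR targets had smaller folds at 1 h than at 8 h. Hspa5 was at 1026 ± 76.0 CPM at 1 h and 8777 ± 612 CPM at 8 h with thapsigargin, and its log2 fold of 1.03 became 3.41 ± 0.06 (difference 2.38 ± 0.07, edgeR adjusted p = 2.48e-27). Ddit3 went from 3.30 to 5.85 ± 0.09, Herpud1 from 1.92 to 4.94 ± 0.07 and Derl3 from 2.65 to 8.03 ± 0.19. Ppp1r15a, at 0.40 ± 0.08 at 1 h, reached 4.35 ± 0.08 at 8 h. Xbp1 was at 1.74 and 1.89 ± 0.07, and this difference of 0.14 (95% interval −0.05 to 0.34) did not pass (edgeR adjusted p = 0.208).

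Several gene lists had other counts at 8 h. Among all genes in this fit 12.9% were higher and 7.52% lower at 1 h, and 34.3% higher and 32.9% lower at 8 h. In the same fit the amino acid supply list went from 5 higher and 3 lower at 1 h to 28 higher and 0 lower at 8 h, with Asns at 3.59 ± 0.05. The ATF4 and CHOP list went from 10 higher and 1 lower of 26 to 26 and 0, and the ER chaperones from 17 and 0 of 25 to 25 and 0. Sterol synthesis genes, 5 higher and 0 lower of 26 at 1 h, were 0 and 25 at 8 h. Myelin genes were 1 higher and 19 lower at 8 h, with Mbp at −1.93 ± 0.13, and cell cycle genes 3 and 21. Neu4, a sialidase of progenitors, was 0.23 ± 0.06 higher at 1 h and at −3.58 ± 0.07 at 8 h. The library labelled Nrf2 -/- untreated 8 h replicate 3 held 7.85 CPM of Nfe2l2 (by total counts), near the 5.28 and 10.7 CPM of untreated wild-type libraries of that hour. Without it the count of differing genes was 9219.

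**Figure D5:**
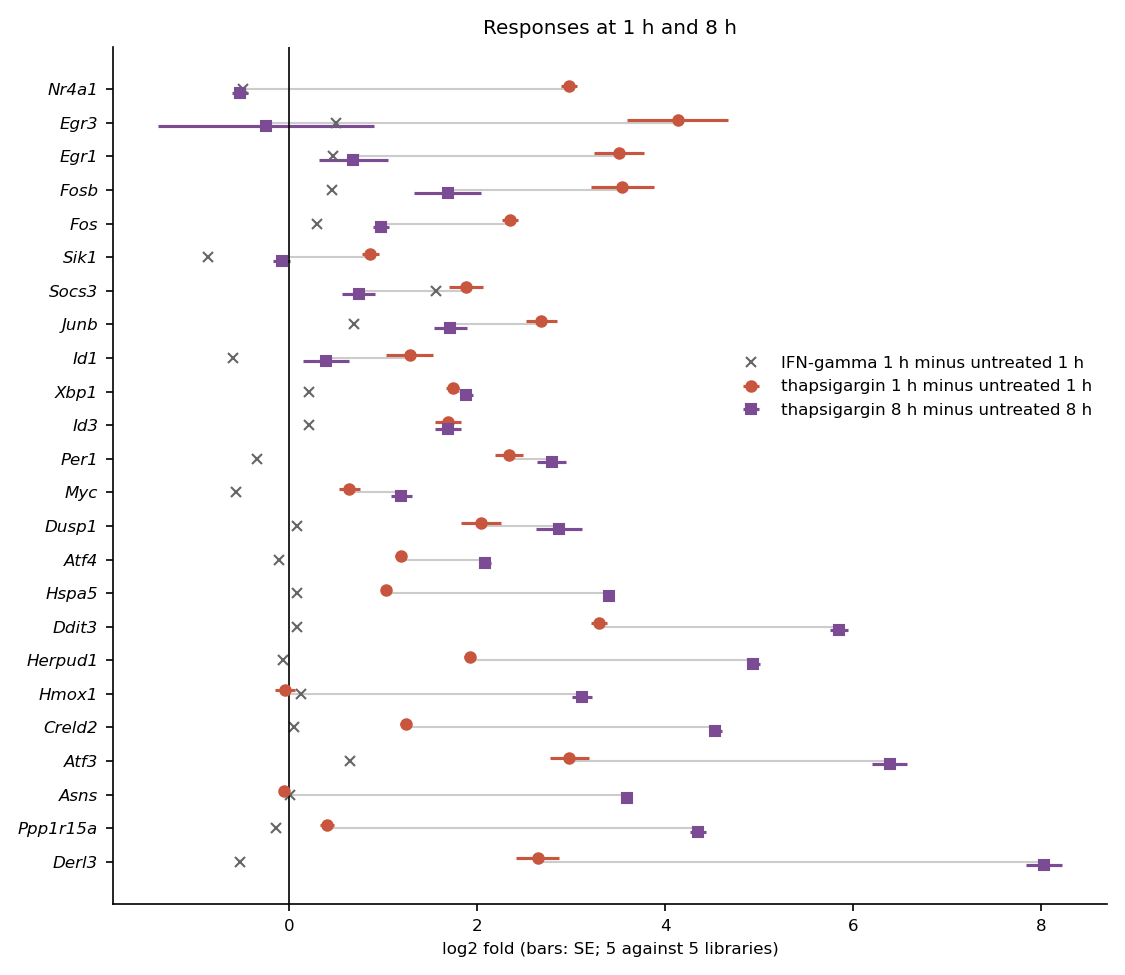
Log2 fold of 24 genes for thapsigargin at 1 h (circles), thapsigargin at 8 h (squares) and IFN-gamma at 1 h (crosses), each against untreated cells of its hour, with SE bars for thapsigargin. The 2 responses at 1 h share their untreated libraries. Nr4a1 goes from 2.98 at 1 h to −0.52 at 8 h, while Ppp1r15a goes from 0.40 to 4.35.

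Thapsigargin and IFN-gamma at 1 h were compared directly, without the untreated libraries that their responses share. Levels differed for 4006 of 16460 genes (24.3%), of which 2281 were higher with thapsigargin and 1725 higher with IFN-gamma. Against untreated cells, IFN-gamma alone gave 599 calls at this hour, 449 higher and 150 lower. In the same fit to all 50 libraries thapsigargin gave 3366 calls at 1 h. Nr4a1 was higher with thapsigargin by a log2 difference of 3.47 ± 0.09 (edgeR adjusted p = 3.87e-29), Ddit3 by 3.22 ± 0.09, Herpud1 by 1.98 ± 0.06, Arrdc3, an arrestin-domain adaptor, by 1.56 ± 0.05 and Zfp324 by 1.03 ± 0.04. Genes higher with IFN-gamma included Irf1 (−4.34 ± 0.08), Irf9 (−2.54 ± 0.07), Trim21 (−2.94 ± 0.09) and 9530082P21Rik (−3.49 ± 0.11).

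For some genes that rose with each agent, the difference between agents did not pass the test. Socs3, a feedback inhibitor of cytokine signalling, was at 191 and 92.5 CPM (wild-type) and 214, 89.5 and 121 CPM (Nrf2 -/-) untreated, and at 557 and 521 CPM and 439, 509 and 550.3 CPM with thapsigargin. Untreated replicate 1 of each genotype was again high, and the treated libraries were still above it. In the fit to all libraries its log2 fold was 1.88 ± 0.18 with thapsigargin and 1.56 ± 0.18 with IFN-gamma, and the difference of 0.32 ± 0.17 (95% interval −0.03 to 0.67) did not pass (edgeR adjusted p = 0.193). Nfkbiz was at 1.25 and 1.12 (interval of the difference −0.11 to 0.36), Maff at 1.29 and 1.14 (−0.04 to 0.34) and Spry1 at 0.53 and 0.54 (−0.11 to 0.10), again with the same untreated libraries on both sides. Of 18 tested IFN-gamma targets 17 rose with IFN-gamma, where 2.73% of all genes did. With thapsigargin 3 rose, namely Irf1, Stat2 and Socs3, where 12.9% of all genes did. Mir17hg and Mex3b fell with both agents, by 1.46 and 1.37 with thapsigargin and by 0.63 and 0.52 with IFN-gamma, and the direct differences of −0.83 ± 0.08 and −0.85 ± 0.06 passed (edgeR adjusted p = 1.53e-10 and 1.99e-14).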

How the data were processed

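Bulk RNA-seq of 50 libraries was deposited as a table of gene read counts, made by the authors with STAR and featureCounts per the submitters' processing notes. A second deposited table holds kallisto estimated counts of 112588 transcripts, summed per gene and rounded for 1 alternative and used for Xbp1 transcripts. The sources used here give no tool version, genome build, annotation or strand setting, so reads of overlapping genes cannot be told apart. Of 39056 gene entries, 38872 matched GENCODE M21 (GRCm38).

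Genes were kept by filterByExpr (10 counts in the smallest group, 15 in total). Counts were TMM scaled and fitted with edgeR 4.0.16 (quasi-likelihood, robust; R 4.3.3), with Benjamini-Hochberg adjustment over all tested genes and a threshold of 0.05. The 10 libraries of 1 h were fitted with a genotype term (15067 genes) or with 4 group means. The 8 h and IFN-gamma contrasts came from all 50 libraries with 20 group means (16460 genes). The 50 libraries held 32252272 to 54657205 counts. The fits were run on simulated data with known changes. A minimum recovery was required for each comparison except that between genotypes. Replicate pairs differed by more than sampling noise (chi-square per degree of freedom 12.5 to 51.6). In 3 libraries of 8 h the title and another label give different genotypes, and titles were followed.

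Named genes are the 12 highest and 12 lowest folds among called genes of at least 1 CPM with separated libraries in each genotype, 20 reference genes, and the 3 called members of each list with the smallest adjusted p in each direction. In the other comparisons they are the same genes and the 5 with the smallest adjusted p in each direction. Other genes were named after their values were seen, and a few genes that the rule picks are not reported here. The comparison, the gene lists and the reference genes were chosen with earlier results of these data known, so no list is independent evidence. Alternatives were DESeq2 1.42.0, other scalings, filters and models, left-out libraries and, chosen after seeing the data, a term for libraries with high Xist. A share of spliced Xbp1 is not reported, as no annotated transcript has the 26-base intron.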

Additional observations from a re-analysis of the deposited data

Results flagged for a closer look

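The difference between the thapsigargin responses at 8 h and 1 h was itself tested (edgeR, Benjamini-Hochberg adjustment) and passed for 9193 genes, and these values are flagged because the response differs between the 2 hours. On the log2 scale, 8 h minus 1 h, the stress genes Ppp1r15a (3.95), Asns (3.64), Atf3 (3.41), Herpud1 (3.02), Ddit3 (2.55), Hspa5 (2.38) and Atf4 (0.90) had higher folds at 8 h. So did Hmox1 (3.16), Sel1l (3.16), Slc1a4 (3.16), Phf10 (2.65), Aldh18a1 (2.54), Dusp1 (0.83) and Myc (0.56). Lower folds at 8 h were found for the early genes Nr4a1 (−3.50), Fos (−1.37), Junb (−0.97), Sik1 (−0.94) and Id1 (−0.89). The same held for Neu4 (−3.82), Timp3 (−2.38), D430019H16Rik (−1.92), Armh4 (−1.91), Mbp (−1.82) and Olig2 (−0.85). The calls of Dusp1 and Id1 were lost in 5 and 7 of 25 alternative settings.

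A signal outside the gene counts is in the transcript table, in kallisto estimated counts. Xbp1-202, a transcript annotated with a retained intron, had a mean of 447 estimated counts with thapsigargin at 1 h (375 to 531 over 5 libraries) against 47.7 to 65.5 in untreated libraries, a ratio of 8.01. Xbp1-204 had a ratio of 7.97 and Xbp1-203 one of 5.48, while Xbp1-201, the transcript with most counts, had one of 2.84. How the short reads of 1 gene are divided among its transcripts is an estimate, and these ratios were not tested.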

How the results depend on the processing

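The count of 4205 genes at 1 h was 3366 to 4357 under the other models, scalings and filters, and 3296 to 4123 when single libraries were left out. A required log2 fold of at least 1 left 177 genes. The median log2 fold of all genes moved by less than 0.1 under each scaling. Each scaling centres the bulk of genes, so this median cannot show a shift common to all genes. The difference between genotypes, with 0 calls, gave 24 with DESeq2 and 83 without the filter on low counts, and 0 to 19 with single libraries left out. The difference between hours, 9193 genes, was 8782 to 9219 with single libraries left out and 8835 without the 3 libraries with conflicting genotype labels. The comparison with IFN-gamma, 4006 genes, gave 3449 to 5260 under the other settings and 3000 to 3902 with single libraries left out. Over the named genes at 1 h, 2417 of the recomputed values kept their direction and call, 162 lost the call and 5 gained one, and none changed sign while called. The difference between hours of Nfe2l2 reversed, from −1.004 (edgeR adjusted p = 0.271) to 0.87 (0.0228) without Nrf2 -/- untreated 8 h replicate 3, the library with a wild-type level of this gene, and lay between −1.28 and 0.87 over all left-out libraries. Fdps (0.30 at 1 h) was at 0.03 and Sec61g (−0.26) at −0.08 with isoform estimates summed per gene, neither called, and the cause was not tested. No paired analysis was possible from the labels, because the replicate numbers were given in the order of the library numbers and pair no samples. At 1 h and 8 h, consecutive library numbers do run in sets of an untreated, a thapsigargin and an IFN-gamma library of the same genotype. The labels do not say whether such a set shares a culture or preparation. A term for these sets was not fitted, so an effect of them was not tested. At the depth of these libraries, genes far under 1 CPM rest on few reads.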

Other observations

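Replication-dependent histone genes, which lie in clusters and peak in S phase, were chosen for a look after their values were seen. Of 59 tested clustered histone genes 38 rose and 0 fell with thapsigargin at 1 h, with a median log2 fold of 0.68, beside 15.6% higher among all tested genes. All 6 linker histone H1 genes rose, among them Hist1h1c (1.28 ± 0.11, edgeR adjusted p = 5.52e-05) and Hist1h1e (1.16 ± 0.07, 3.23e-08). Of 15 H2B genes 12 rose, of 11 H3 genes 8, of 13 H4 genes 10 and of 14 H2A genes 2. Median log2 folds were 1.21 for H1, 0.52 for H2B, 0.94 for H3, 0.43 for H4 and 1.08 for H2A. The few H2A calls therefore do not mean smaller folds, and the H2A folds include the high library named below. The summed level was 2056 to 2641 CPM in untreated libraries and 3096 to 5385 CPM in treated ones. The highest value belongs to Nrf2 -/- thapsigargin 1 h replicate 3, where H2A genes summed to 622 CPM against 204 to 243 CPM in the other treated libraries. Without this library 46 rose, and over 19 alternative settings 31 to 57 did, with 0 lower in each. At 8 h 7 were higher and 39 lower (median −0.73), beside 34.3% higher and 32.9% lower among all genes. With IFN-gamma at 1 h 0 of 59 were called by edgeR, which is near the 2.73% of all genes that rose with it. Beside this, 1 of 24 cell cycle genes rose and 3 fell at 1 h, or 1 and 8 without this library. Many of these genes are near-identical copies whose reads the counting could split, so single members are uncertain, and the share of histone transcripts with a poly(A) tail in these libraries was not tested.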
